A study of Mus musculus with 6 samples.

Results

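The genes described here encode 7 enzymes of the mevalonate pathway that lead from acetyl-CoA to farnesyl diphosphate: Acat2, Hmgcs1, Mvk, Pmvk, Mvd, Idi1 and Fdps. They were chosen by their place in the pathway, with earlier results of these data known. They were found on the array through the RefSeq accession of each probe, which gave 10 probes for the 7 genes among 55681 probes in all. All 7 genes were among the 24225 features tested, that is, genes or unnamed transcripts with a probe well above background on all arrays of at least 1 group. Transcripts were measured on 1-colour Agilent arrays in adult hippocampal precursor cells, the dividing cells of the dentate gyrus from which new neurons arise. The LDL group held 3 cultures given human low-density lipoprotein for 48 h, and the saline group held 3 cultures given saline for as long. The mice were C57BL6/JRj males aged 8 weeks, and all cultures grew as a monolayer with 20 ng/ml each of EGF and bFGF. The treatment protocol in the labels gives 100 ug/ml of LDL and the sample descriptions give 100 ug/ul, so the dose unit is uncertain. The 3 experiments of each group used different passages. How many mice these cultures stem from is not stated in the labels, so p-values measure the spread between these cultures.

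The mevalonate pathway builds isoprenoid units from acetyl-CoA. Farnesyl diphosphate, its end point here, is the branch point between sterols and the non-sterol products such as ubiquinone, dolichol and the lipid anchors of prenylated proteins. Its genes are classic targets of SREBP2, a transcription factor held inactive in the endoplasmic reticulum when sterols are plentiful, and LDL taken up by a cell delivers cholesterol to it. The question addressed is how far each step of the pathway differs between cells given LDL and cells given saline.

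Promoter windows from RefSeq (assembly GRCm38.p6, 250 bases before to 50 after a gene's start) were matched for 6 of the 7 genes. Pmvk had 2 windows and Fdps had none. The windows are shown as a description, because SREBP2 and its partner NF-Y bind known motifs. Both strands were searched for the sterol regulatory element as TCACCCCAC and as TCACNCCAC, of which the first is an instance, for the NF-Y motif CCAAT and for the Sp1 motif GGGCGG. The exact element lay in the Hmgcs1 window only among the 7 windows, against 0.551% of all 32851 windows, and the form with a free base gave the same single match, against 1.24% of all windows. CCAAT lay in the windows of 5 of the 6 genes (Hmgcs1, Mvk, Pmvk, Mvd and Idi1), against 41.1% of all 27025 genes with windows. By window it lay in 5 of 7, against 37.4% of all windows. The Acat2 window and the second Pmvk window lacked it. GGGCGG lay in those of 5 genes (Acat2, Hmgcs1, Mvk, Mvd and Idi1), against 38.2% of all genes with windows. A match is a description of these letters, not a binding site. The stretches below run 5′ to 3′ on the gene's strand, with the sterol element and CCAAT (or its reverse complement ATTGG) in capitals. They cover chr13:119690104-119690320 on the plus strand for Hmgcs1, chr5:114444086-114444268 on the plus strand for Mvk, chr3:89454395-89454419 on the plus strand for Pmvk, chr8:122443435-122443492 on the minus strand for Mvd and chr13:8885551-8885605 on the plus strand for Idi1.
Hmgcs1: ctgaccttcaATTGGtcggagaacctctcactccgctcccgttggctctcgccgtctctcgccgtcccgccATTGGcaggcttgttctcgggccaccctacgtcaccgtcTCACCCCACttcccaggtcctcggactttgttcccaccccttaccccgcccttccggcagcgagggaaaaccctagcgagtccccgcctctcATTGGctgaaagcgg
Mvk: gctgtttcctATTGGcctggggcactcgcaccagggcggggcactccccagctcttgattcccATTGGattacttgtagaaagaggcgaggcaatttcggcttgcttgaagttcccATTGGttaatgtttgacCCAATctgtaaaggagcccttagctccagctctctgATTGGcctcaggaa
Pmvk: ctcaggttggCCAATtcacagcatc
Mvd: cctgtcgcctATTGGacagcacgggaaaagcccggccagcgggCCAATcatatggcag
Idi1: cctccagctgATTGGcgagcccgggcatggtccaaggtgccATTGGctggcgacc
The sterol element of Hmgcs1 began 137 bases before the start, between NF-Y matches at 176 and 45 bases before it. Mvk had 5 CCAAT matches within 173 bases of its start, the most of the windows shown, and Idi1 had its pair at 45 and 14 bases.

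Before the values, the labelled cell type was set against markers. All 10 precursor markers (among them Nes, Sox2, Vim, Fabp7 and Mki67) were well above background on all 6 arrays, while Dcx and Neurod1, which define young neurons, were so on none. Of other cell types, 6 of 8 neuron, 8 of 8 oligodendrocyte, 6 of 7 astrocyte, 6 of 8 microglia and 3 of 8 vascular markers were above background on all 6 arrays. The astrocyte markers Gfap, Aqp4, S100b, Aldh1l1, Aldoc and Slc1a2 and the microglia markers Itgam and Csf1r were among those on all 6, while Gjb6 of astrocytes, P2ry12 of microglia and Cdh5, Pdgfrb and Rgs5 of vessels were so on none, Aif1 of microglia on 1 array and Cldn5 of vessels on 4. Their median log2 fold changes lay between -0.23 for astrocyte and -0.02 for oligodendrocyte markers, and the only marker of all these lists to pass was Gfap, which was higher after LDL (1.35, adjusted p = 0.0225 by limma). The summed signal of the measured astrocyte markers, in multiples of each array's 75th percentile, was 97.3 to 112 with LDL and 116 to 141 with saline. That of vascular markers was 13.6 to 14.3 with LDL and 14.4 to 15.1 with saline, and the sums of the other lists overlapped between the groups. Each of these 2 sums was carried almost wholly by its brightest gene, Aldoc among astrocyte markers (mean log2 level 6.69 with LDL and 6.93 with saline) and Kdr among vascular markers (3.73 with LDL and 3.80 with saline), and neither gene passed. The part of these differences in the results below was not tested. In RNA from whole cultures, fewer cells of a type and less RNA per cell cannot be told apart.

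After LDL, 6 of the 7 enzyme genes fell, and the other, Pmvk, did not pass (limma, adjusted p under 0.05 over all features). Of all features tested, 0.107% were called lower and 0.0124% higher, and 0 of the 7 genes were called higher. The 7 genes were chosen with earlier results of these data known, so their counts here are not independent evidence. For all 7 genes the 3 LDL values lay below the 3 saline values without overlap, as they did for 8.77% of all features, while 5.82% lay above without overlap. An unadjusted p under 0.05 was reached by 7 of 7 genes and by 7.46% of features. With every probe tested on its own, 3 of the 10 probes (of Hmgcs1, Idi1 and Fdps) were called lower, against 0.0697% of 32993 probes. The median log2 fold change was -1.07 over the 7 genes and -0.03 over all features. The estimated falls, each by the gene's brightest probe, ran from 4.43-fold for Hmgcs1 to 1.90-fold for Acat2 among the genes called. Levels below are log2 of the signal over the array's own 75th percentile, so that 0 is a probe as bright as that percentile. They are comparable between arrays for 1 probe, not between probes.

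**Figure D1:**
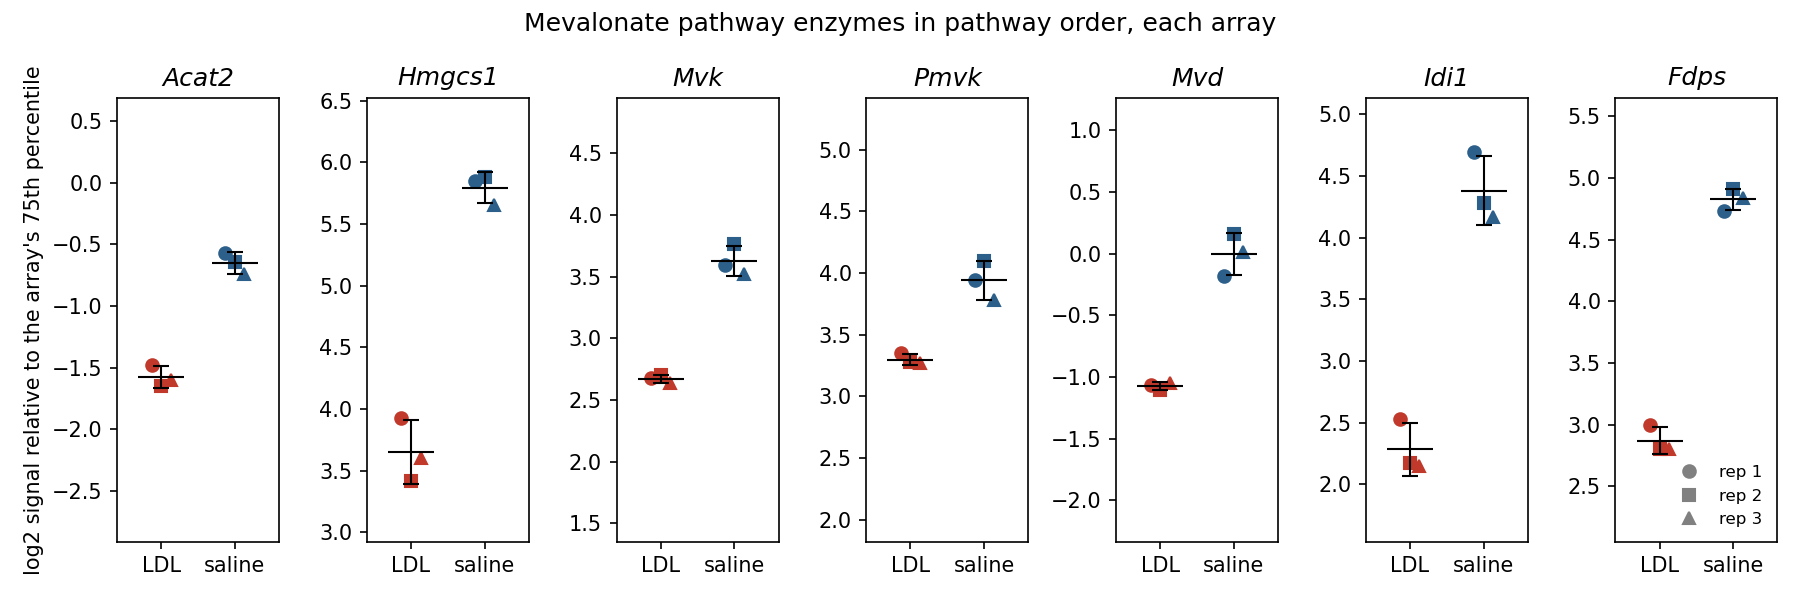
Level of each enzyme gene on each array (y axis, log2 signal relative to the array's 75th percentile; the 7 panels span equal lengths of log2 units at different heights), with LDL arrays in red and saline arrays in blue, replicates by symbol, and black bars for mean ± SD (n = 3 each). In every panel all 3 LDL arrays sit below all 3 saline arrays, with a narrow gap for Pmvk and wide gaps for Hmgcs1, Idi1 and Fdps.

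The first step is the joining of acetyl-CoA units by Acat2, the cytosolic acetoacetyl-CoA thiolase. Its only probe read -1.48, -1.65 and -1.60 on LDL arrays 1 to 3, against -0.57, -0.64 and -0.74 on saline arrays 1 to 3. The groups stood 0.73 apart at their nearest values, and neither spread over more than a fraction of that gap. The mean was -1.58 ± 0.09 with LDL and -0.65 ± 0.09 with saline (SD, n = 3 each), a log2 fold change of -0.92 (SE 0.10, 95% interval -1.16 to -0.68, adjusted p = 0.0382), or 1.90-fold lower. The probe was dim but measured, with processed signals of 269 to 344 on LDL arrays and 469 to 566 on saline arrays. Acat3, its paralog and next gene on the chromosome, read -1.96, -1.98 and -2.04 with LDL and -1.61, -0.86 and -0.89 with saline, a difference of -0.88 on the log2 scale that did not pass (SE 0.21 and adjusted p = 0.394). Whether the probe of either paralog also binds the other's transcript was not tested.

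Hmgcs1, the cytosolic synthase that adds a further acetyl group to make HMG-CoA, had the largest change of the 7 and the third lowest log2 fold change of all 24225 features. Its brighter probe read 3.93, 3.41 and 3.60 with LDL, against 5.85, 5.88 and 5.65 with saline. LDL array 1 was the highest of its group, yet lay 1.72 below the lowest saline array. The mean was 3.65 ± 0.26 with LDL and 5.79 ± 0.12 with saline, a log2 fold change of -2.15 (SE 0.15, 95% interval -2.51 to -1.78, adjusted p = 0.0106). The dimmer Hmgcs1 probe read -5.84, -5.01 and -5.35 with LDL and -4.16, -4.19 and -4.08 with saline. It was well above background on 1 of 3 LDL arrays and on 3 of 3 saline arrays, at processed signals of 16.7 to 26.1 with LDL and 40.0 to 56.1 with saline. It entered the test only through the saline arrays, so its difference of -1.26 is no measured size and lends the brighter probe no support.

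The next enzymes phosphorylate mevalonate and turn it into the first isoprenoid unit. Mvk, mevalonate kinase, read 2.68, 2.70 and 2.63 with LDL and 3.59, 3.77 and 3.52 with saline, so that the LDL arrays nearly coincided while the saline arrays spread somewhat more. Its means were 2.67 ± 0.03 with LDL and 3.63 ± 0.12 with saline, a log2 fold change of -0.96 (SE 0.10, 95% interval -1.20 to -0.71, adjusted p = 0.0346). Both Mvk probes gave like sizes, the dimmer one reading 0.11, 0.01 and 0.04 with LDL against 0.97, 1.24 and 0.98 with saline, a change of -1.01. The gene had thus fallen to a level 1.94-fold lower by its brighter probe and 2.01-fold lower by its dimmer one.

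Pmvk, phosphomevalonate kinase, had the smallest difference of the 7 genes. Its brighter probe read 3.35, 3.27 and 3.27 with LDL and 3.94, 4.10 and 3.78 with saline, and the dimmer one 1.94, 1.91 and 1.94 with LDL and 2.46, 2.77 and 2.55 with saline. Neither probe's groups overlapped. The brighter probe's log2 fold change was -0.64 (SE 0.11, 95% interval -0.91 to -0.38), which did not pass over all features (adjusted p = 0.202), and that of the dimmer probe was -0.67. The gene passed under 1 of the other settings, normexp background correction with quantile normalization (-0.62, adjusted p = 0.0362, while all settings together gave 0.0362 to 0.999).

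Mvd, the decarboxylase that yields isopentenyl diphosphate, read -1.06, -1.11 and -1.05 with LDL, against -0.18, 0.16 and 0.01 with saline. The LDL arrays agreed closely and the saline arrays spread more, with saline array 1 nearest to the LDL group. Means were -1.07 ± 0.03 with LDL and -0.00 ± 0.17 with saline, a log2 fold change of -1.07 (SE 0.11, 95% interval -1.34 to -0.80, adjusted p = 0.0346), or 2.10-fold lower.

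The last enzymes work on the isoprenoid units themselves. Idi1, the isomerase that converts isopentenyl diphosphate to its reactive partner dimethylallyl diphosphate, read 2.53, 2.17 and 2.15 with LDL and 4.70, 4.28 and 4.16 with saline. Replicate 1 was the highest array in both groups, and the groups stood 1.63 apart. The means of 2.28 ± 0.21 with LDL and 4.38 ± 0.28 with saline gave a log2 fold change of -2.10 (SE 0.18, 95% interval -2.52 to -1.68, adjusted p = 0.0135), or 4.28-fold lower. Its relative and chromosomal neighbour Idi2 was near background, with the brightest of its 3 probes well above it on 5 of 6 arrays, and differed by -0.01 on the log2 scale (adjusted p = 0.996).

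Fdps, which condenses the isoprenoid units into farnesyl diphosphate, read 2.998, 2.81 and 2.80 with LDL and 4.74, 4.91 and 4.84 with saline. Both groups were tight, and the nearest arrays lay 1.74 apart. The mean was 2.87 ± 0.11 with LDL and 4.83 ± 0.09 with saline. Its fall of 3.89-fold ranked second by p among all features, while Hmgcs1 ranked sixth and Pmvk 91st (log2 fold change of Fdps -1.96, SE 0.11, 95% interval -2.21 to -1.71, adjusted p = 0.00496).

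**Figure D2:**
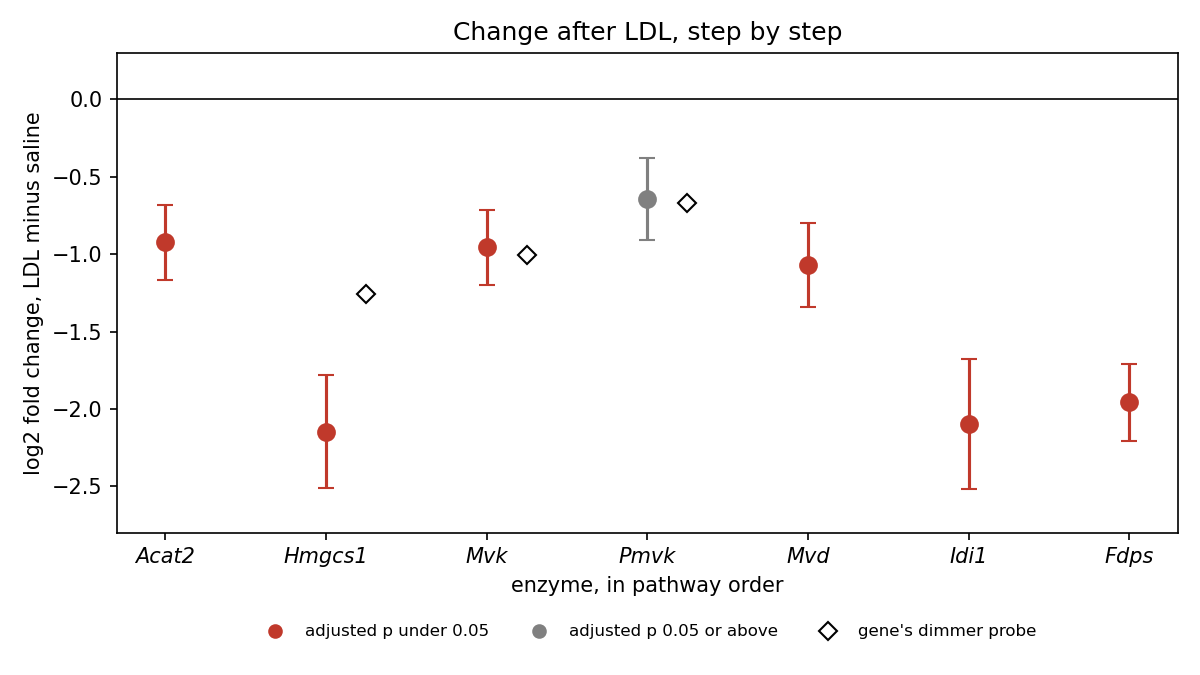
Log2 fold change, LDL minus saline (y axis), for each enzyme in pathway order (x axis), with bars for the 95% interval from limma. Red circles passed an adjusted p of 0.05, the grey circle (Pmvk) did not, and open diamonds show the dimmer probe of genes with a pair. Hmgcs1, Idi1 and Fdps lie near -2 and the other enzymes at -1.07 or closer to 0, while the dimmer Hmgcs1 probe, near background on 2 of 3 LDL arrays, lies at -1.26.

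The estimated sizes of the change were thus not alike along the pathway. Each came from a different probe, and how far a probe's own response shaped its size was not tested. The 95% intervals of Hmgcs1, Idi1 and Fdps all ended at or below -1.68, and those of Acat2, Mvk, Pmvk and Mvd all began at or above -1.34, a division made after the values were seen. To compare a step with the one listed before it, the difference between their log2 values was taken within each array, in 6 pairs. Between Hmgcs1 and Mvk lies a reaction of the pathway that is not analysed here. In 5 pairs the LDL and saline values of this difference did not overlap. Each had the smallest p that an exact two-sided permutation test of 3 against 3 can give (p = 0.1). After Benjamini-Hochberg adjustment over the 6 pairs it was 0.12, so no pair could pass. The test thus cannot decide whether neighbouring steps differed. How often other pairs of features lack overlap was not counted.

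The log2 fold change of Hmgcs1 minus that of Acat2 was -1.22, and that of Mvk minus that of Hmgcs1 was 1.19. From Mvk to Pmvk the difference was 0.31, from 0.58 to 0.67 on LDL arrays and from 0.26 to 0.35 on saline arrays. Mvd differed from Pmvk by -0.43, and Idi1 from Mvd by -1.03. Fdps and Idi1 were the pair whose values overlapped, at 0.47 to 0.66 on LDL arrays and 0.04 to 0.68 on saline arrays (difference 0.14, exact p = 0.8). This last difference turned to -0.0648 without saline replicate 1. With the mean over probes for Hmgcs1, which takes in the probe near background on LDL arrays, the first pair came to -0.78 and the second to 0.72, so these values are not measured sizes.

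Within a group, the 7 genes varied together in part. LDL array 1 was above its group mean for 7 of 7 genes, by 0.12 on average, while LDL arrays 2 and 3 were each above it for 1 gene. Saline array 2 was above its group mean for 6 genes and saline array 3 for 2. Such counts were not made over all features, and an offset of whole arrays was not tested. Over the 6 arrays, Pearson's r between pairs of the 7 genes ran from 0.944 (Mvd with Idi1) to 0.998 (Acat2 with Hmgcs1), given as a description, since all pairs share the difference between the groups. Among the 5 features outside the pathway whose profile was most like the mean of the 7 genes, over the same 6 arrays, were Elovl6 (r = 0.999), a fatty acid elongase, and Cyp51 (r = 0.998), Msmo1 (r = 0.997) and Pdp2 (r = 0.996). Cyp51 and Msmo1 are later enzymes of cholesterol synthesis, and Pdp2 is a phosphatase of the pyruvate dehydrogenase complex. Their likeness to a profile made mostly of the difference between the groups fixes that they were lower after LDL, so their log2 fold changes, -1.19 for Elovl6 and -0.37 for Pdp2 among them, are a description.

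On the slide, row 1 held 2 arrays of each group and row 2 held 1 of each. Within row 1 the log2 fold changes were -0.96 for Acat2, -2.19 for Hmgcs1, -0.99 for Mvk, -0.71 for Pmvk, -1.08 for Mvd, -2.14 for Idi1 and -1.92 for Fdps. In row 2 they were -0.86 for Acat2, -2.05 for Hmgcs1, -0.89 for Mvk, -0.51 for Pmvk, -1.06 for Mvd, -2.01 for Idi1 and -2.04 for Fdps. The order of steps by size was nearly the same in both rows.

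The calls, unlike the sizes, changed when single arrays were left out. Such fits also have fewer arrays, and why calls were lost was not tested. With each array left out in turn, between 0 and 4 of the 7 genes were called, namely 3 without LDL replicate 1, 0 without LDL replicate 2, 0 without LDL replicate 3, 4 without saline replicate 1, 1 without saline replicate 2 and 0 without saline replicate 3. Of all 24225 features, those fits called 16, 0, 0, 23, 3 and 0 lower, in the same order. Where 0 of the 7 genes were called, no feature of the array was called lower either. The count was also 3 with median scaling (22 features lower in all) or a slide row block (14 in all). It was 0 without the background filter or with slide row 1 by itself, where 0 features in all were called lower. A block for replicate number left 1 gene called, Idi1, which was the only feature called lower in that fit. When single arrays were dropped, log2 fold changes ran from -2.02 to -1.92 for Fdps, from -2.29 to -2.03 for Hmgcs1, from -2.22 to -1.94 for Idi1, from -1.16 to -0.99 for Mvd, from -1.01 to -0.89 for Mvk, from -0.97 to -0.88 for Acat2 and from -0.72 to -0.56 for Pmvk. Over all 129 values of the genes under other settings, 129 were negative. Where arrays were only left out, this sign was fixed in advance, since the groups did not overlap for any of the 7 genes. The block fits repeat the reported values, and the 129 include the dimmer Hmgcs1 probe, near background on LDL arrays. The count is thus a description.

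**Figure D3:**
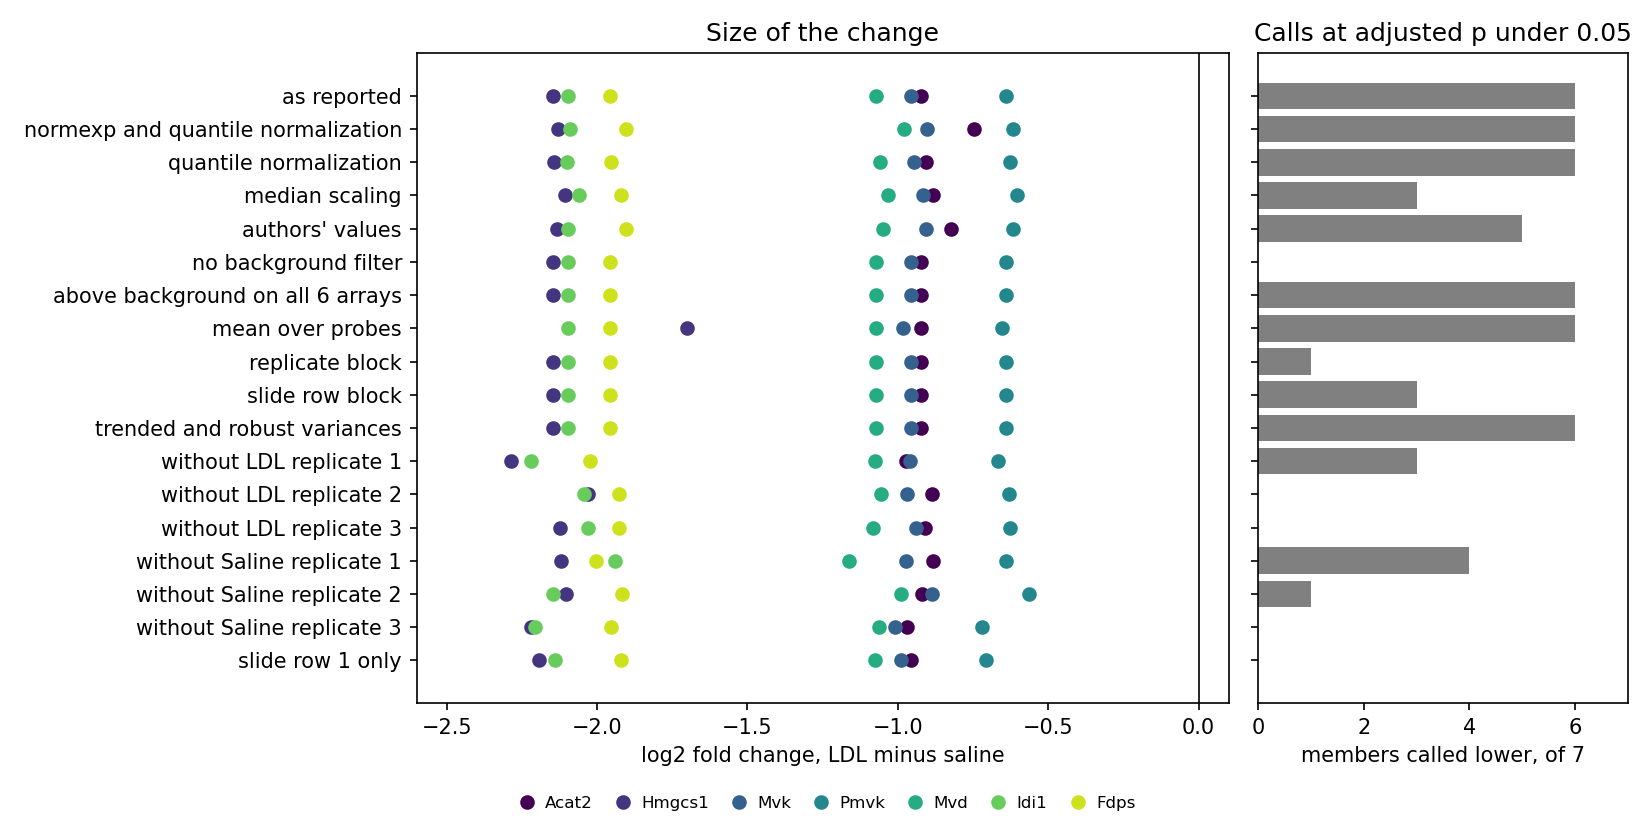
Left, log2 fold change (LDL minus saline, x axis) of each enzyme gene under each setting (rows), coloured by gene. Right, how many of the 7 genes were called lower at an adjusted p under 0.05. The sizes stay close between rows except Hmgcs1 with the mean over probes (-1.70), which takes in a probe near background on LDL arrays, while the calls run from 0 to 6.

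Beyond farnesyl diphosphate, the 13 genes that carry it on to cholesterol all had negative values, with a median log2 fold change of -1.32. Of these, 6 fell and 7 did not pass. Among the called genes were Msmo1 (-1.92), Cyp51 (-1.81), Tm7sf2 (-1.79), Lss (-1.55), the cyclase that makes the sterol ring system, and Sc5d (-1.03). Fdft1, which takes farnesyl diphosphate into the sterol branch, had -1.44 (SE 0.19, adjusted p = 0.0798), and the next enzyme, Sqle, had -1.03 (adjusted p = 0.0984). The list was chosen with earlier results of these data known, so its count is not independent evidence. The count of 6 came to 0 without LDL replicate 2, LDL replicate 3 or saline replicate 3 and to 1 without saline replicate 2. Of all features, 0, 0, 0 and 3 were called lower in these fits, in that order.

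The 17 genes of the non-sterol branches had values close to 0. None passed in limma, and 2 had an unadjusted p under 0.05, against 7.46% of all features. A positive value was found for 13 of 17, and the median was 0.04, within a range from -0.04 to 0.29. Ggps1, which extends farnesyl diphosphate to geranylgeranyl diphosphate, had 0.04 (95% interval -0.25 to 0.34). The 4 genes of smallest p were Nus1, a subunit of the dolichol-making prenyltransferase, at 0.29 (adjusted p = 0.64), Rabggta, a subunit that prenylates Rab proteins, at 0.21 (adjusted p = 0.664), Pggt1b, a subunit of a protein prenyltransferase, at 0.17 and Rabggtb at 0.22. The intervals of Ggps1 and of Fdps do not overlap, and the difference itself was not tested.

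**Figure D4:**
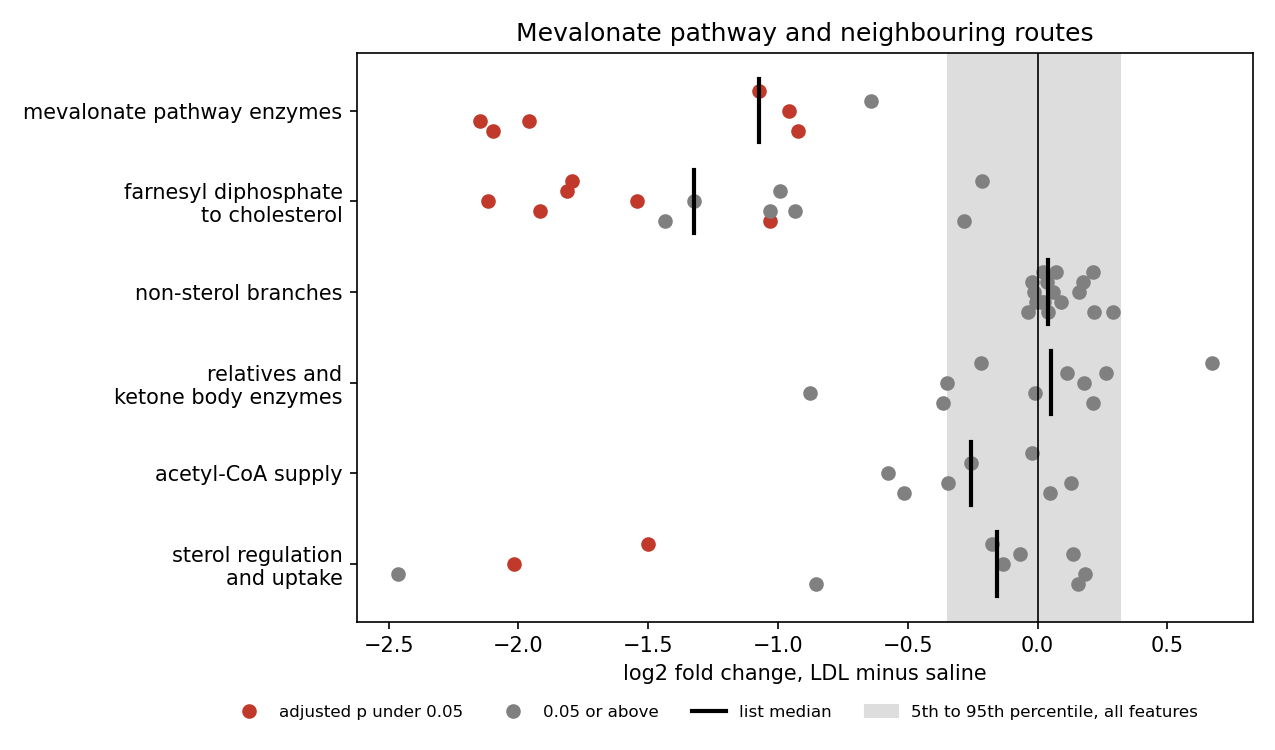
Log2 fold change (LDL minus saline, x axis) of each measured gene in 6 lists (rows), red where it passed an adjusted p of 0.05 and grey where it did not, with black lines for list medians and a grey band from the 5th to the 95th percentile of all features (-0.34 to 0.32). The 7 enzyme genes lie left of the band, as do 11 of the 13 genes from farnesyl diphosphate to cholesterol, while the non-sterol genes lie inside it.

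Relatives of these enzymes and the ketone body enzymes were mixed, with 0 of 10 measured genes called in limma. Of the 10, 3 had an unadjusted p under 0.05, against 7.46% of all features, and the median was 0.05. Acat3 and Idi2, described above, were among the 10, and Acat3 had the lowest value of the list (-0.88). Acat1, the mitochondrial thiolase, had -0.36 (adjusted p = 0.529), and Acaa2, a thiolase of mitochondrial fatty acid oxidation, had 0.67 (adjusted p = 0.497), in opposite directions. Peroxisomal Acaa1a had 0.18 and Acaa1b 0.26.

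Among 7 genes that supply acetyl-CoA, 0 passed in limma and the median was -0.25. Of these, 3 had an unadjusted p under 0.05, against 7.46% of all features. The 4 genes of smallest p were Aacs, which makes acetoacetyl-CoA in the cytosol, at -0.58 (adjusted p = 0.206), Acly, ATP citrate lyase, at -0.52 (adjusted p = 0.358), Acss2, acetyl-CoA synthetase, at -0.34 and Slc25a1, the mitochondrial citrate carrier, at -0.25. Of 10 genes of sterol regulation and uptake, 2 fell and 8 did not pass, with a median of -0.15. The called genes were Insig1, which retains the SREBP complex in the endoplasmic reticulum, at -2.02 (adjusted p = 0.0114), and Stard4, a sterol transfer protein, at -1.50 (adjusted p = 0.0135). Neither passed without LDL replicate 2, LDL replicate 3, saline replicate 2 or saline replicate 3, when 0 of the 10 were called, and 1 was called without saline replicate 1. Of all features, 0, 0, 3, 0 and 23 were called lower in these fits, in that order. Srebf2, which encodes SREBP2, had -0.85 (adjusted p = 0.494).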

How the data were processed

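The deposited scanner files give the linear intensity of each spot. Agilent Feature Extraction 10.7.3.1 had subtracted background, per the file headers, with no normalization between arrays. The submitters' processing notes also list R 3.4.4 and limma 3.34.9. The authors deposited a table of log2 values aligned between arrays by an unstated method (column medians 6.74 to 6.76, r with log2 signal from 0.987 to 0.993 across probes, direction and log base taken from that match), used as an alternative.

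Here, log2 of the processed signal minus the array's 75th percentile was used. Outlier-flagged spots were left out unless a probe had no others, and spots of a probe were averaged. A probe was tested if well above background on all arrays of 1 group (32993 probes), at least 50% of its spots being so. The brightest probe stood for a gene. Names came from RefSeq accessions (28331 probes matched, GRCm38.p6). The files hold no gene name column, so members were found by accession.

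The groups were set against each other in limma 3.58.1 (R 4.3.3, lmFit and eBayes, two-sided) without a covariate. Benjamini-Hochberg adjustment ran over all features, and the fit was checked on simulated data. The number of arrays limits precision, and between 55.9% and 66.9% of probes were above background. Besides the 7 members and their relatives, each list's called genes and up to 4 of smallest p are named, and the 5 features most like the members' mean. Some genes that this rule names are not reported here. Members and lists were chosen with earlier results of these data known. Alternatives were normexp (offset 50, on median signals, as the files hold no mean signal) with quantile normalization, quantile or median scaling, the authors' values, other background filters, other probe rules, blocks for replicate number or slide row, trended robust variances and each array left out. A fit on slide row 1 by itself was chosen after seeing the data. Figures used matplotlib 3.10.9.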

Additional observations from a re-analysis of the deposited data

How the results depend on the processing

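All log2 fold changes of the 7 genes kept their direction in the settings run. This was fixed in advance where arrays were only left out or a block was added. Without the background filter 0 of 7 genes, 0 sterol-branch genes, 0 sterol regulators, 0 features lower and 0 higher were called by limma, with 1773 features at an unadjusted p under 0.05. The adjusted p was then 0.0671 for Fdps (-1.96), 0.098 for Hmgcs1 (-2.15), 0.112 for Idi1 (-2.10), 0.231 for Mvk (-0.96) and Mvd (-1.07) and 0.242 for Acat2 (-0.92). Normexp gave 8 features higher, Acat2 at -0.75 (adjusted p = 0.0572) and Pmvk at -0.62, which then passed. Quantile normalization and the filter on all 6 arrays each gave 5 features higher, and trended robust variances gave 16. Median scaling gave 22 features lower and 8 higher and called 3 of 7 genes, losing Acat2 (-0.88), Mvk (-0.92) and Mvd (-1.03). The authors' values gave 8 higher and lost Acat2 (-0.82, adjusted p = 0.0707). A slide row block left 14 features lower, 0 higher, 3 of 7 genes and 1 sterol regulator, with 1578 features at an unadjusted p under 0.05, losing Acat2 (-0.92), Mvk (-0.96) and Mvd (-1.07). With every probe tested on its own, Acat2 (-0.92, adjusted p = 0.059), Mvd (-1.07, 0.0516), both Mvk probes (-0.96 and -1.01) and the dimmer Hmgcs1 probe (-1.26, near background on 2 of 3 LDL arrays) missed the threshold.

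Same-numbered arrays deviated together with correlations of 0.21, -0.04 and 0.18, and differently numbered ones with -0.23 to 0.08. These values do not settle whether the numbers pair the cultures, and the fit reported above took no pairing. With a replicate block, 1 feature lower, 1 of 7 genes (Idi1), 0 sterol-branch genes and 0 regulators were called, with 1975 features at an unadjusted p under 0.05, and Acat2 (-0.92), Hmgcs1 (-2.15), Mvk (-0.96), Mvd (-1.07) and Fdps (-1.96) missed the threshold. Slide row 1 by itself, chosen after seeing the data, gave 0 calls in either direction, in the 7 genes and in the lists, with 862 features at an unadjusted p under 0.05, and values of -0.96 for Acat2, -2.19 for Hmgcs1, -0.99 for Mvk, -1.08 for Mvd, -2.14 for Idi1 and -1.92 for Fdps.

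Leaving out 1 array at a time gave 0 to 23 features lower, 0 to 6 higher, 0 to 4 of the 7 genes, 0 to 6 sterol-branch genes, 0 to 3 regulators and 0 to 1 relatives, with 991 to 3742 features at an unadjusted p under 0.05. The values ran from -0.97 to -0.88 for Acat2, -2.29 to -2.03 for Hmgcs1, -1.01 to -0.89 for Mvk, -1.16 to -0.99 for Mvd, -2.22 to -1.94 for Idi1 and -2.02 to -1.92 for Fdps. The difference of Fdps and Idi1 ran from -0.0648 to 0.255, turning to -0.0648 without saline replicate 1. Where a call was lost, the cause was not tested. Signal over background limits the dimmer Hmgcs1 probe and Idi2.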

Other observations

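The protein-coding genes next to the 7 enzyme genes on their chromosomes were looked at after the data were seen. There were 14 such genes, of which 13 were tested. None was called by limma in either direction, and the median log2 fold change was -0.04, with 9 of 13 negative. An unadjusted p under 0.05 in limma was reached by 3 (Acat3, Mmab and Rusc1), against 7.46% of all features. Acat3, Mmab, Fam222a and Rusc1 lay lower without overlap, as did 8.77% of all features, and Pklr lay higher, as did 5.82%. Mmab, which lies beside Mvk and encodes an enzyme of vitamin B12 metabolism, averaged -1.57 ± 0.04 with LDL and -1.12 ± 0.04 with saline by the brightest of its 3 probes (SD, n = 3 each). The groups did not overlap for that probe or for the next brightest one, at -2.76 to -2.55 with LDL and -2.49 to -2.11 with saline. They overlapped for the dimmest one, at -3.51 to -3.12 with LDL and -3.19 to -2.71 with saline. By its brightest probe Mmab differed by -0.45 on the log2 scale (95% interval -0.66 to -0.24, SE 0.09) and did not pass (adjusted p = 0.267). In humans the Mvk and Mmab orthologs are known to share a bidirectional promoter.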
